A study of Homo sapiens with 8 samples.

Results

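The 10 genes AGR2, AGR3, SPDEF, FOXA3, MUC1, MUC4, MUC16, MUC20, TFF1 and TFF3, which belong to the secretory program of mucus-producing epithelium, were followed in a basal-like breast cancer cell line exposed to IL-13. They are 10 of the 20219 distinct gene symbols in the deposited table, found by their symbol, and each was represented by 1 feature (a set of probes summarised to 1 value per array). The list was selected on the AGR2 response to IL-13 in control cells, which was known when the genes were picked, and the other 9 were added for their role in the same program.

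The cells were MIV-Luc, the luciferase-expressing form of MCF10CA1a, a metastatic derivative of the MCF10A mammary epithelial line. All groups carried luciferase and a stable lentiviral pLKO hairpin, either a scrambled sequence (shSCR) or 1 hairpin against IL13RA2, the receptor IL13Rα2 that binds IL-13 (shIL13RA2, called knockdown cells below). Each cell line was mock-treated or kept for 16 h with IL-13 at 20 ng/ml, and 2 biological replicates of each of the 4 conditions were hybridized to Affymetrix GeneChip arrays. Because the knockdown rested on a single hairpin in a single transduced line, an effect of the receptor and one of that hairpin or line cannot be told apart. Values are on the log2 scale, where 1 unit is a 2-fold difference, and the arrays are named by the running numbers of their columns, 1 and 2 for mock-treated shSCR cells, 3 and 4 for IL-13-treated shSCR cells, 5 and 6 for mock-treated knockdown cells, and 7 and 8 for IL-13-treated knockdown cells.

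AGR2 is a protein disulfide isomerase of the endoplasmic reticulum that mucin-producing cells need for mucin folding, and it is also known as a gene of hormone-responsive breast cancer. AGR3 is its close relative. In airway and gut epithelium the transcription factors SPDEF and FOXA3 drive goblet cell differentiation, mucins give mucus and the cell coat their bulk, and trefoil factors are small peptides secreted with mucins. IL-13 is known to act through STAT6 and to turn airway epithelium towards goblet cells.

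The array values fitted the labels. IL13RA2, the gene targeted by the hairpin, had log2 values of 8.09 and 8.07 in mock-treated shSCR cells, 9.33 and 9.36 with IL-13, 6.34 and 6.52 in mock-treated knockdown cells, and 8.23 and 8.15 in knockdown cells with IL-13. In limma it was lower in knockdown cells by a log2 difference of -1.65 ± 0.11 (SE, adjusted p = 0.00948) without IL-13 and -1.16 ± 0.11 (SE, adjusted p = 0.0228) with it. The serpins SERPINB3 and SERPINB4, STAT6 target genes whose near-identical sequences may share probe signal, were higher with IL-13 on both arrays of each cell line. SERPINB3 rose from 6.84 and 6.94 to 10.85 and 10.70 in shSCR cells and from 7.78 and 7.56 to 10.93 and 10.97 in knockdown cells. Array medians were 5.03 to 5.06 in the first 4 arrays and 5.02 to 5.06 in the other 4, and Pearson's r across features was 0.992 to 0.993 within groups (4 pairs) and 0.988 to 0.993 between groups (24 pairs). On the 8 arrays the hormone receptor PGR ranged from 3.03 to 3.45, and among the other luminal markers KRT8 ranged from 9.81 to 10.41, KRT18 from 8.01 to 9.60 over its 2 features, and GATA3 from 7.79 to 8.32. The basal keratin KRT5 ranged from 9.46 to 9.98. Levels of different probe sets cannot be set against each other, so these values do not place the cells among breast cell types.

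AGR2 was the member that differed between the groups. It had log2 values of 7.33 and 7.09 in mock-treated shSCR cells and 5.93 and 6.01 in IL-13-treated shSCR cells. In knockdown cells it had 7.70 and 7.79 after mock treatment and 6.46 and 6.34 with IL-13. Both treated groups were thus below both mock-treated groups, and no array of any group overlapped with those of another group. The shSCR values among these selected the list. In the comparisons of 2 groups below, 36.5% to 41.1% of all features did not overlap, and the share for all 4 groups at once was not counted. The order of the group means was knockdown without IL-13 (7.74 ± 0.07), shSCR without IL-13 (7.21 ± 0.17), knockdown with IL-13 (6.40 ± 0.08) and shSCR with IL-13 (5.97 ± 0.06; all SD, n = 2). The means of AGR2 spanned 1.77, and those of each of the other 9 genes 0.08 to 0.36.

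**Figure D1:**
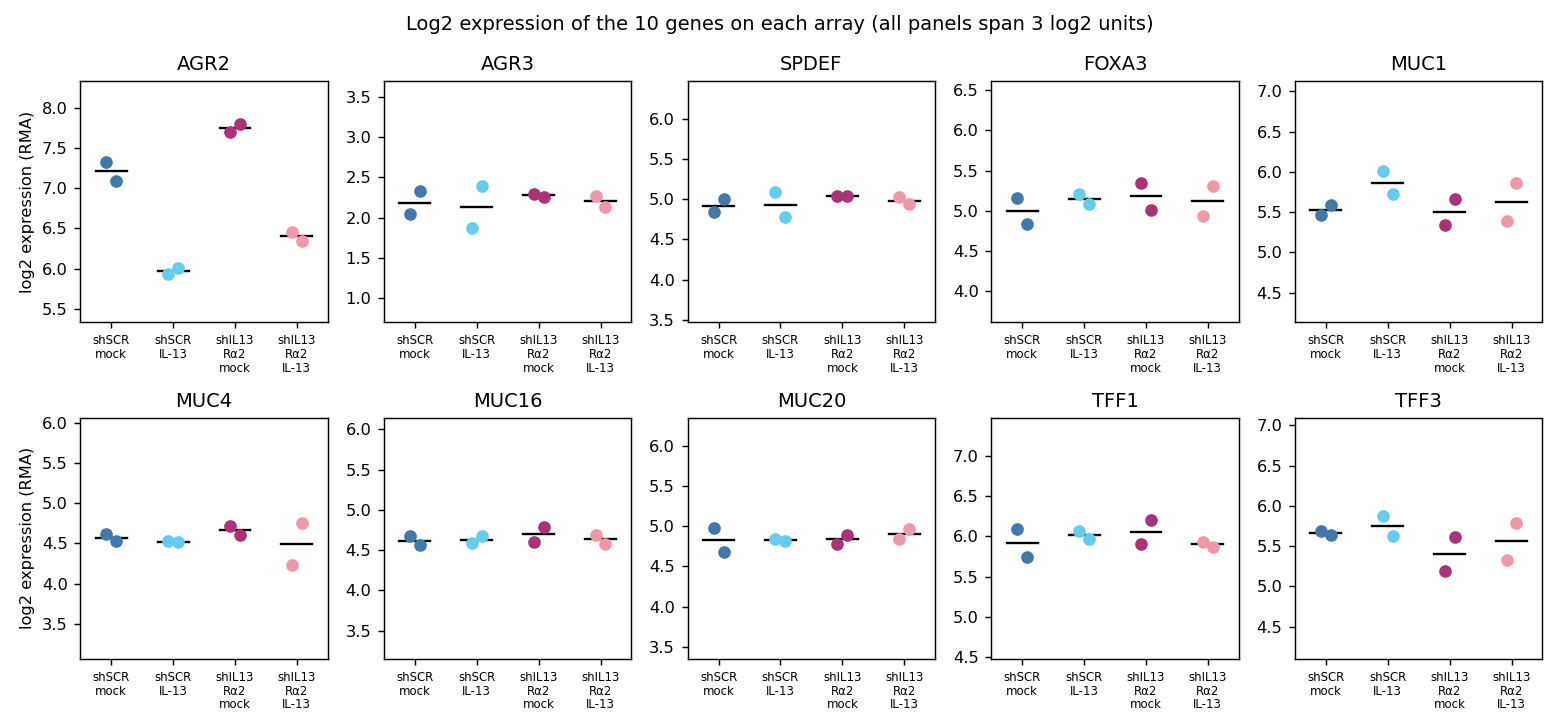
Log2 expression (RMA) of each gene on the 8 arrays. Points are arrays, coloured by group, and black lines are the means of 2 arrays; each panel spans the same range of 3 log2 units around the gene's mean. AGR2 falls with IL-13 in both cell lines and its 4 groups stand apart, while the groups of the other genes lie close together, with means that span 0.36 at most. The values of AGR2 in shSCR cells selected the list, and the share of all features whose 4 groups stand apart was not counted.

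In shSCR cells, the AGR2 mean was 2.36-fold lower with IL-13 than without (log2 difference -1.24 ± 0.12, SE). This comparison was in view when the genes were chosen, so it is given as a description without a test. A call needed more than a 2-fold change and, in a limma fit over the 8 arrays, a p-value under 0.05 after Benjamini-Hochberg adjustment over the 28536 features tested. By this rule 0.0596% of all features were called in shSCR cells, and 1 of the 10 members, AGR2, from which nothing can be read because these values selected the list. Limma's adjusted p of AGR2 was above the threshold without any 1 array (0.0657 to 0.154) and on the 4 arrays alone (0.208). The groups of 36.7% of all features did not overlap, with AGR2 and MUC1 the 2 members.

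The same question could be asked in knockdown cells, on 4 arrays that the comparison in shSCR cells did not use. There AGR2 was 2.54-fold lower with IL-13, a log2 difference of -1.34 ± 0.12 (SE, 95% confidence interval -1.63 to -1.06), which passed the test in limma (adjusted p = 0.0145, unadjusted p = 4.57e-06). AGR2 was the 1 of 10 members called, where 0.0631% of all features were called. The groups of 2 members, AGR2 and SPDEF, did not overlap, which was so for 37.4% of all features. The direction held under every alternative tried, but the call did not: limma's adjusted p was 0.144, 0.164, 0.128 and 0.206 without arrays 5, 6, 7 and 8 in turn, against 0.0322 to 0.0490 without an array of shSCR cells, and 0.0940 on the 4 arrays alone, and the methods' test with adjustment gave 0.736. With the features lacking a transcript tested too it was 0.0563. In RNA of whole cultures, fewer cells with AGR2 and less AGR2 RNA per cell cannot be told apart.

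The IL-13 difference of AGR2 was then compared between the 2 cell lines. The shSCR difference that enters this comparison selected the list, so the values are given as a description. The interaction of knockdown and IL-13 was -0.11, with a 95% confidence interval from -0.51 to 0.29 (limma, unadjusted p = 0.555, adjusted p = 0.998), so that a difference of up to 0.51 between the lines lay within the interval. No feature was called for the interaction (0% by adjusted p), 4.47% of all features and 0 of the 10 members had an unadjusted p under 0.05, and the methods' test was not run on it.

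Between knockdown and shSCR cells, the AGR2 means differed in the direction opposite to that with IL-13. The comparisons of these cell lines share arrays with those above and with each other. Their shSCR values of AGR2 were among those that selected the list. Without IL-13, AGR2 was higher in knockdown than in shSCR cells by 0.53 (95% confidence interval 0.25 to 0.82), and among IL-13-treated cells by 0.43 (0.14 to 0.71). Neither passed the test in limma, with adjusted p-values of 0.271 and 0.501. Features called were 0.0666% of all without IL-13 and 0.0526% with it, none of them a member. AGR2 was the 1 member with an unadjusted p under 0.05 in each, as were 9.53% and 7.06% of all features. The groups did not overlap for AGR2, SPDEF and TFF3 without IL-13 (3 of 10 members, and 41.1% of all features) and for AGR2 and TFF1 with IL-13 (2 of 10 members, and 36.5% of all features), shares near the background.

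The combination of both changes was read from IL-13-treated knockdown cells minus mock-treated shSCR cells. IL13RA2 itself was not lower in this comparison, with group means of 8.19 and 8.08. AGR2 was 1.75-fold lower, a log2 difference of -0.81 (95% confidence interval -1.09 to -0.53, limma adjusted p = 0.0519, 0.00449 to 0.607 over the alternatives), under the fold of 2 needed for a call. No member was called, where 0.165% of all features were. AGR2 was the 1 member with an unadjusted p under 0.05, as were 9.60% of all features, and the 1 member whose groups did not overlap, which was so for 40.3% of all features. The AGR2 values of mock-treated shSCR cells used here were among those that selected the list.

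AGR2 and AGR3 lie on the minus strand of chromosome 7. AGR2 moved with IL-13, while AGR3 passed no test at a low level of 1.87 to 2.39, where a fall may not be seen. The 250 bases before their starts are shown (RefSeq, GRCh38.p14, AGR2 at chr7:16805000-16805249 and AGR3 at chr7:16881984-16882233, both read 5′ to 3′ on the minus strand). Capitals mark the exact letters TATAAA, a form of the TATA box. Other forms were not searched for, so a window without capitals may still hold one.
AGR2: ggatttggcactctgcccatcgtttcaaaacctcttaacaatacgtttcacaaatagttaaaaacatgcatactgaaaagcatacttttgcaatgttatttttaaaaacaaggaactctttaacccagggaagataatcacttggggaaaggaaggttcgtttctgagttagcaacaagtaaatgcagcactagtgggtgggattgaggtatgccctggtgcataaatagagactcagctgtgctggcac
AGR3: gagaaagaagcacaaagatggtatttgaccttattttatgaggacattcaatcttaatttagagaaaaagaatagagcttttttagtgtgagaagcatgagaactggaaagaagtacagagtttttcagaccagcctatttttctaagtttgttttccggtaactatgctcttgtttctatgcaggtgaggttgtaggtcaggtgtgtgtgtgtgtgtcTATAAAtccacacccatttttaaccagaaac
Promoters were given for 7 of the 10 genes (9 promoters, without MUC20, TFF1 and TFF3). Searched on both strands, the STAT6-type letters TTCNNNNGAA were in none of these 9 windows and in 5.38% of all 35116 promoter windows of the table. The STAT-type letters TTCNNNGAA were in that of MUC4, starting at -11 from the transcription start, and in 6.57% of all windows. TATAAA was in those of AGR3 at -31, FOXA3 at -30 and MUC1, and in 10.7% of all windows.

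AGR3 had log2 values of 2.04 and 2.33 in mock-treated shSCR cells and 1.87 and 2.39 with IL-13. In knockdown cells it had 2.30 and 2.25, and 2.27 and 2.13 with IL-13. The arrays of its groups overlapped in all comparisons, and the lowest and the highest value stood in the same group, IL-13-treated shSCR cells. AGR3 was among the dimmest 30% of features, with array medians at 5.02 to 5.06. At that level a fall like that of AGR2 may not be seen, so its flat values do not show that it was expressed and unresponsive.

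Neither transcription factor passed the test in any comparison. SPDEF, the regulator of goblet and Paneth cell maturation, had log2 values of 4.85 and 5.00 in shSCR cells, 5.09 and 4.78 with IL-13, 5.04 and 5.04 in knockdown cells, and 5.02 and 4.94 with IL-13. FOXA3, a forkhead factor of endodermal and goblet cells, had 5.16 and 4.83, then 5.21 and 5.09, in shSCR cells without and with IL-13, and 5.35 and 5.01, then 4.94 and 5.31, in knockdown cells. The IL-13 difference in knockdown cells was -0.06 for SPDEF (95% confidence interval -0.36 to 0.25) and -0.06 for FOXA3 (-0.48 to 0.37), neither past the test in limma.

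The 4 mucins are membrane-bound glycoproteins of the epithelial surface. MUC1, carried by most glandular epithelia, had log2 values of 5.46 and 5.58 in shSCR cells and 6.01 and 5.72 with IL-13. In knockdown cells it had 5.34 and 5.66, and 5.39 and 5.86 with IL-13. The difference with IL-13 was 0.34 ± 0.19 (SE) in shSCR cells, where the groups stood apart, and 0.12 ± 0.19 in knockdown cells, where they overlapped (limma adjusted p = 0.793 and 0.939). MUC4, which associates with the receptor ERBB2, ranged from 4.23 to 4.75 over the 8 arrays, both in IL-13-treated knockdown cells. MUC16, which carries the CA125 epitope, ranged from 4.56 to 4.79. MUC20, which has a near-identical pseudogene that may share probe signal, ranged from 4.68 to 4.98.

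Of the trefoil factors, neither passed the test. TFF1, an oestrogen-regulated peptide in breast cancer, had log2 values of 6.09 and 5.74 in shSCR cells, 6.07 and 5.97 with IL-13, 5.91 and 6.21 in knockdown cells, and 5.94 and 5.87 with IL-13. TFF3, the trefoil factor of intestinal goblet cells, had 5.69 and 5.64, 5.88 and 5.63, 5.20 and 5.62, and 5.33 and 5.79 in the same order. Of the comparisons made, TFF3 differed most between knockdown and shSCR cells without IL-13, by -0.26 ± 0.20 (SE, limma adjusted p = 0.720), with array 5 lowest.

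For the 9 genes other than AGR2, the log2 differences with IL-13 ran from -0.05 to 0.34 in shSCR cells and from -0.17 to 0.15 in knockdown cells. Those with the knockdown ran from -0.26 to 0.18 without IL-13 and from -0.25 to 0.08 with it, and those of the combination (knockdown cells with IL-13 minus mock-treated shSCR cells) from -0.10 to 0.13. The 95% confidence interval stayed within a 2-fold change for all 9 genes in each comparison, and reached at most 0.78 upwards (MUC1, IL-13 in shSCR cells) and -0.71 downwards (TFF3, knockdown without IL-13) in these comparisons of groups. The smallest adjusted p in limma over these 9 genes was 0.793 and 0.883 for IL-13 in shSCR and in knockdown cells, and 0.720, 0.855 and 0.879 for the other comparisons in the order above. The median difference with IL-13 of all 10 genes, AGR2 included, was 0.01 in shSCR and -0.06 in knockdown cells, against 0.00 and 0.02 over all features. The values come without a call of signal above background, so whether a gene with a flat level was expressed at all is not known here.

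**Figure D2:**
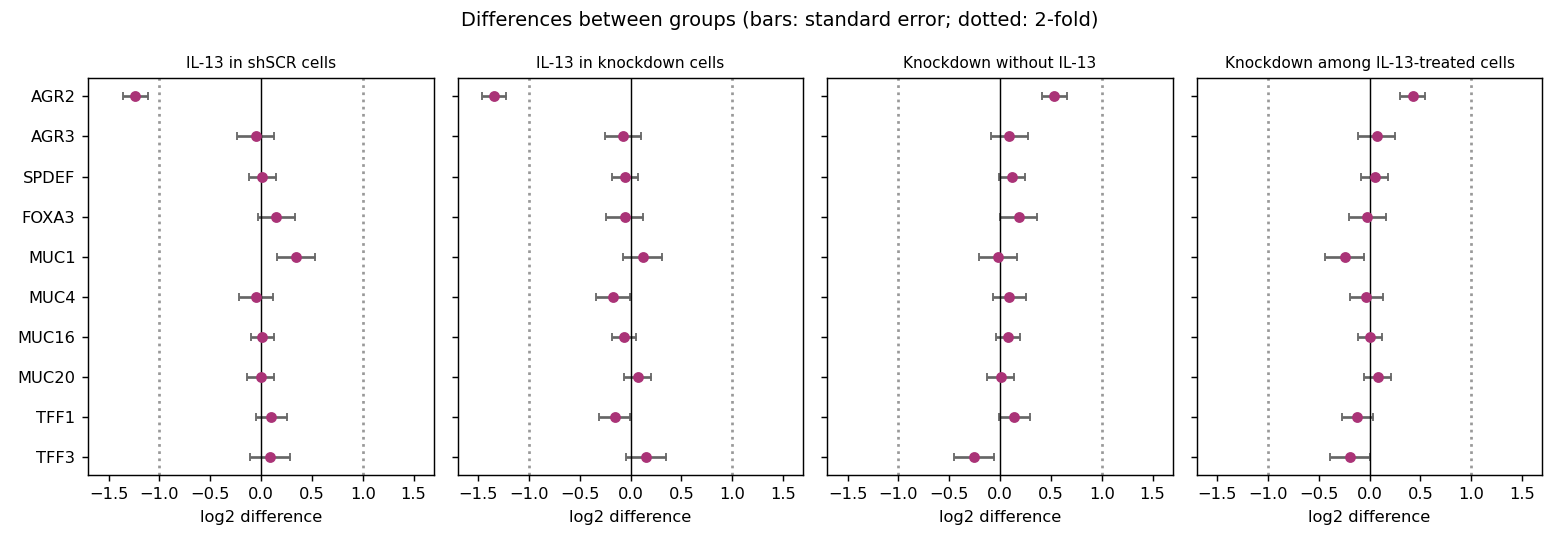
Log2 difference between groups (x axis) for each gene (y axis) in 4 comparisons. Points are limma estimates over 8 arrays, bars their standard errors, and dotted lines a 2-fold change. AGR2 lies beyond 2-fold with IL-13 in both cell lines, at -1.24 and -1.34, and the other 9 genes lie between -0.26 and 0.34 in all panels.

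The wider mucus program was read from 5 lists: other mucins, the enzymes that attach and extend mucin O-glycans, protein disulfide isomerases, regulators of secretory lineages, and secreted products of airway and goblet cells. They held 96 genes on the array with 104 features, while MUC5AC, the main mucin of airway goblet cells, and TXNDC5 were not found by symbol. None of the 104 features was called in any comparison in limma. At an unadjusted p under 0.05, 8 were higher and 3 lower with IL-13 in shSCR cells (6.79% of all features) and 5 higher and 3 lower in knockdown cells (6.94% of all features). With the knockdown, 4 were higher and 6 lower without IL-13 (9.53% of all features), 3 higher and 7 lower with it (7.06%), and 7 higher and 6 lower in the combination (9.60%). The methods' test (analysis of variance on the 4 arrays, unadjusted, with a fold change above 2) gave 1, GCNT3, with IL-13 in shSCR cells, 1, again GCNT3, in the combination, and 0 in the other comparisons.

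GCNT3 had the largest differences of the listed genes. The authors had already reported it as higher with IL-13 in shSCR cells, and the lists were chosen with earlier results known. Its shSCR values are therefore a description. GCNT3 encodes the mucin-type enzyme that starts the core 2 and core 4 branches of O-glycans. It had log2 values of 6.91 and 6.62 in shSCR cells and 8.06 and 8.22 with IL-13, and 6.97 and 6.41 in knockdown cells and 8.02 and 7.77 with IL-13. The treated arrays were above the mock-treated ones in both lines, the reverse of AGR2. In these comparisons the groups of 36.7% (shSCR) and 37.4% (knockdown) of all features did not overlap, in either direction. The GCNT3 difference was 1.38 (SE 0.25, 2.59-fold) in shSCR and 1.20 (SE 0.25, 2.30-fold) in knockdown cells. It missed the threshold in limma, with adjusted p-values of 0.117 and 0.177, and was below it with an intensity trend and robust prior (0.00788 and 0.0173). By adjusted p no other setting passed, the highest values being 0.794 and 0.823 in the methods' test with adjustment.

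Among the other O-glycosylation enzymes, GALNT7, which adds N-acetylgalactosamine to partly glycosylated mucins, had little spread between replicates. It had 8.94 and 8.91 in shSCR cells, 9.42 and 9.41 with IL-13, 9.16 and 9.15 in knockdown cells, and 9.60 and 9.64 with IL-13, and its 4 groups did not overlap. The share of all features for which this was so was not counted. The difference was 0.49 and 0.46 with IL-13 in the 2 lines (limma adjusted p = 0.360 and 0.342) and 0.70 in the combination (adjusted p = 0.0381, and 0.0834 to 0.260 without 1 array), under the fold of 2. C1GALT1C1, the chaperone of the core 1 enzyme, had group means of 6.18 and 6.30 in shSCR cells without and with IL-13, and 5.86 and 5.66 in knockdown cells. The list's median difference with IL-13 was 0.02 in shSCR and -0.03 in knockdown cells.

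The mucin list had medians of 0.04 and 0.02. Its widest span of group means was 0.71, in 1 of 3 features of MUC12, with the highest mean of 5.25 in IL-13-treated knockdown cells, where the arrays lay at 4.82 and 5.69. MUC19, a gel-forming mucin, had group means of 3.13 and 3.52 in shSCR cells and 3.59 and 3.74 in knockdown cells, without and with IL-13. EMCN, an endothelial sialomucin, had 2.74 and 2.41, then 2.39 and 2.75.

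The disulfide isomerases other than AGR2 and AGR3 had medians of -0.04 and 0.01 with IL-13. ERP27, a member without catalytic activity, had group means of 5.23 and 5.09 in shSCR cells and 5.22 and 4.54 in knockdown cells, without and with IL-13, and the last difference of -0.68 did not pass the test (limma adjusted p = 0.505). PDILT, known from testis, had its highest mean, 3.54, in IL-13-treated shSCR cells. ERP29, a chaperone of secretory proteins, lay between 7.56 and 8.03 on all arrays.

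Of the lineage regulators (medians -0.04 and 0.04), EHF, an epithelial factor of the same ETS family as SPDEF, was higher on every array of knockdown cells than on every array of shSCR cells. It had 8.60 and 8.59, then 8.68 and 8.68 with IL-13, in shSCR cells, and 9.16 and 9.23, then 9.23 and 9.03, in knockdown cells. The knockdown difference was 0.59 without IL-13 and 0.45 with it (limma adjusted p = 0.188 and 0.395). The share of all features with every knockdown array above every shSCR array was not counted. In the single knockdown comparisons, the groups of 41.1% (without IL-13) and 36.5% (with it) of all features did not overlap. CREB3L1, an activator of secretory capacity, had group means of 4.27 and 4.74 in shSCR cells and 4.51 and 4.59 in knockdown cells, and NKX2-1, a lung lineage factor, had 4.06 and 3.97, then 3.94 and 3.67.

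Among the secreted products (medians 0.05 and 0.04), SLPI, an antiprotease of mucosal fluids, had 8.98 and 9.05 in shSCR cells, 8.56 and 8.69 with IL-13, 8.76 and 8.62 in knockdown cells, and 8.46 and 8.13 with IL-13. Its difference with IL-13 was -0.39 in each line (limma adjusted p = 0.682 and 0.642). LCN2, an iron-binding defence protein, had group means of 7.63 and 7.48 in shSCR cells and 7.37 and 6.94 in knockdown cells. ANO1, a chloride channel of secretory epithelium, had 5.09 and 5.14, then 4.74 and 4.54. No difference of LCN2 or ANO1 passed the test in limma (smallest adjusted p = 0.0677 for LCN2 in the combination).

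**Figure D3:**
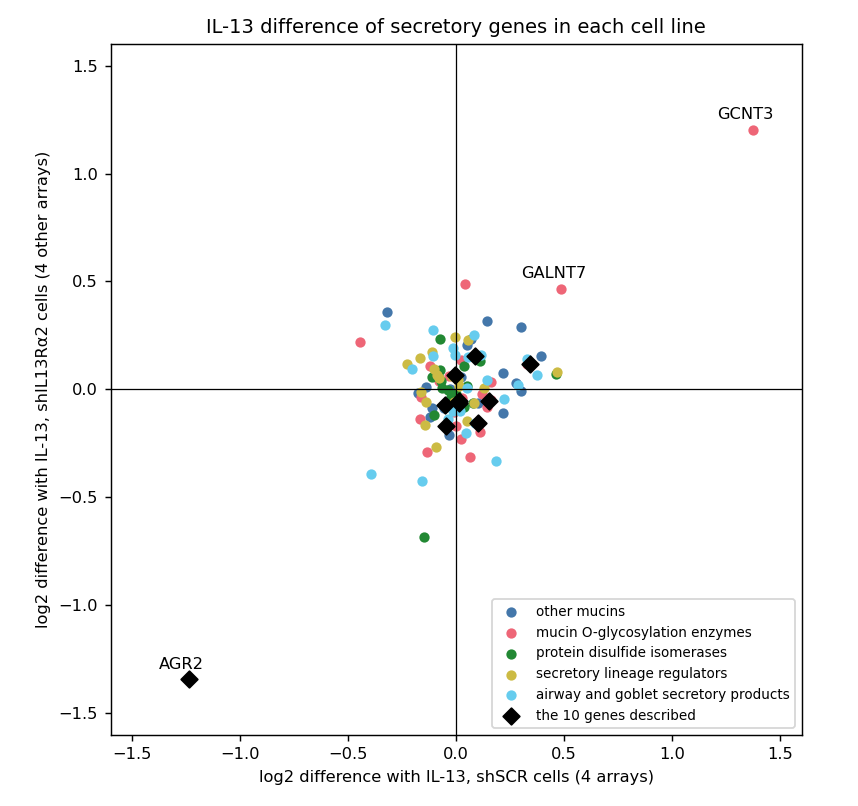
Log2 difference with IL-13 in shSCR cells (x axis, 4 arrays) and in knockdown cells (y axis, the other 4 arrays) for the 10 genes (black diamonds) and the 104 features of the 5 lists (coloured points). Among the features plotted, AGR2 stands alone at the lower left (-1.24 and -1.34) and GCNT3 at the upper right (1.38 and 1.20), while the other 9 genes lie near the origin. The x value of AGR2 selected the list, so its place on that axis is no test. The x value of GCNT3 is no test either, since the authors had reported that difference before the lists were chosen. Genes that are not plotted, such as CEACAM6, also fell with IL-13 in both lines.

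Markers of other cell types were read beside the AGR2 result. The summed log2 level of 8 fibroblast, endothelial and blood cell markers was 38.8 to 39.3 and 38.7 to 39.1 in mock-treated shSCR and knockdown cells, and 37.8 to 38.5 and 37.9 to 38.3 with IL-13, lower on all 4 treated arrays. With PECAM1 left out, the sums of mock-treated and IL-13-treated arrays overlapped in each cell line. Group means of PECAM1 spanned 1.05, and those of each other marker in the list 0.09 to 0.52. Within that list the endothelial marker PECAM1 followed the order of AGR2 in part, with log2 values of 8.08 and 8.33 in shSCR cells, 7.83 and 7.71 with IL-13, 8.82 and 8.82 in knockdown cells, and 8.14 and 8.27 with IL-13, and it passed no test in limma (smallest adjusted p = 0.214). Of the blood cell markers, PTPRC lay at 2.27 to 2.71 throughout, while CD14 was lower with IL-13 in each line. CD14 had 5.71 and 5.59 in shSCR cells and 5.14 and 5.49 with IL-13. In knockdown cells it had 5.55 and 5.43, and 5.35 and 5.10 with IL-13. The fibroblast marker DCN went the other way in shSCR cells, at 2.56 and 2.71, and 2.95 and 3.13 with IL-13. The part of these markers in the AGR2 result was not tested. Sums of 8 luminal markers overlapped between mock-treated and IL-13-treated arrays in each cell line (62.0 to 64.6 in all). Those of 8 basal markers overlapped in shSCR cells (80.2 to 81.3 and, with IL-13, 79.3 to 80.3). In knockdown cells they did not, at 80.4 to 80.5 after mock treatment and 79.1 to 79.8 with IL-13, so that this sum was lower on the arrays on which AGR2 was lower, and its part in the AGR2 result was not tested.

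The genes whose pattern was most like that of AGR2 were sought among the 139 other features with a single gene symbol whose group means spanned more than 1. Pearson's r over the 8 arrays, given as a description since the arrays share their groups, was 0.978 for CEACAM6, a surface adhesion molecule of epithelial tumours, 0.977 for CP, the copper carrier ceruloplasmin, 0.975 for SLITRK6, a membrane protein, 0.970 for CD24, a mucin-like surface glycoprotein with near-identical copies in the genome, and 0.955 for STC1, a secreted glycoprotein. SLITRK6, for one, had log2 values of 8.58 and 8.67 in shSCR cells, 7.79 and 7.67 with IL-13, 9.21 and 9.26 in knockdown cells, and 8.30 and 8.11 with IL-13. Its 4 groups stood in the same order as those of AGR2. The most opposed were SEMA3A (-0.983), a secreted guidance factor, TNS4 (-0.975), a focal adhesion protein, IL7R (-0.970), a cytokine receptor, DNASE2B (-0.965), a nuclease, and ABCC2 (-0.964), an export pump. SEMA3A had 7.10 and 7.08 in shSCR cells, 8.17 and 7.94 with IL-13, 6.90 and 6.80 in knockdown cells, and 7.79 and 7.88 with IL-13. None of the other 9 genes could be among the 139 features, because their group means spanned 0.36 at most. Their likeness to AGR2 was not examined.

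**Figure D4:**
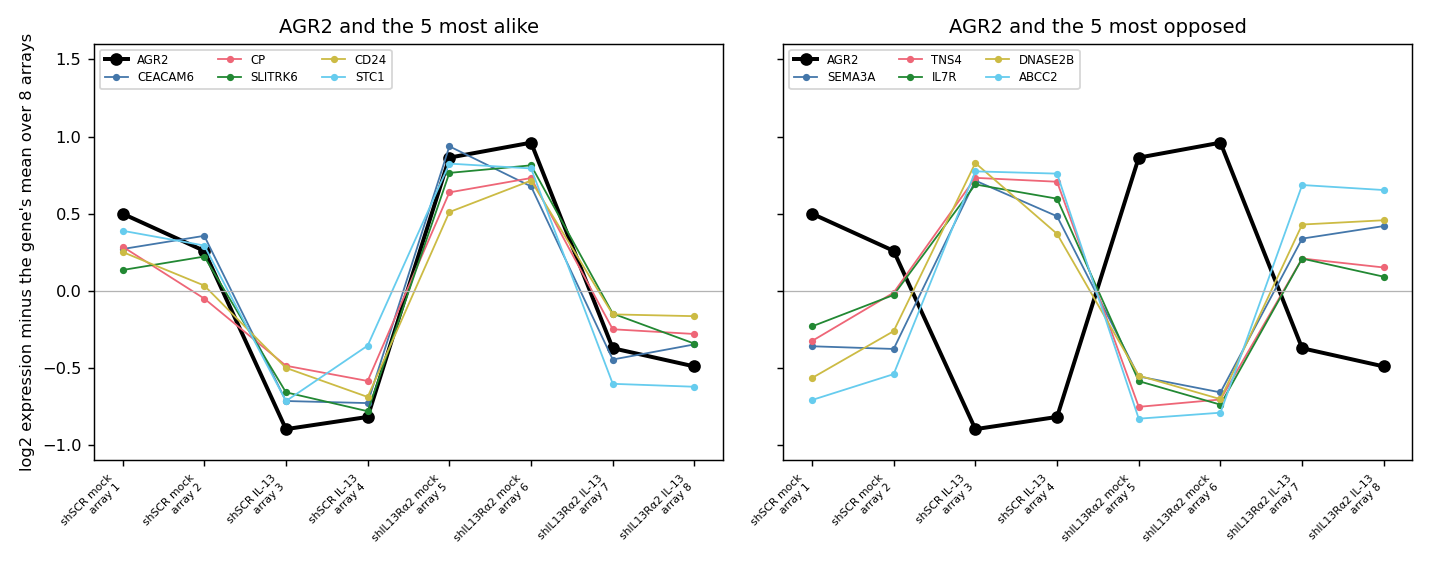
Log2 expression minus each gene's mean over the 8 arrays (y axis) on each array (x axis, ordered by group). AGR2 is the thick black line, shown with the 5 genes of highest Pearson's r (left, 0.955 to 0.978) and the 5 of lowest r (right, -0.983 to -0.964). Lines join arrays only to guide the eye. The genes at the left fall with IL-13 in both cell lines and are highest in mock-treated knockdown cells, as AGR2 is, and those at the right do the reverse.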

How the data were processed

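RNA of 8 cultures was hybridized to Affymetrix GeneChip arrays. For each feature and array the authors deposited a log2 expression value, made in Affymetrix Expression Console version 1 with RMA (background correction, quantile normalization over the arrays and a summary of probes). The genome build and annotation release are not given in the sources used here. The values were used as deposited. The construct and treatment in a column heading gave its group, and headings carry no replicate number.

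Of 33297 features, 4761 without a transcript annotation were left out and 28536 tested. Group means were fitted over all 8 arrays in limma (version 3.58.1, under R 4.3.3, with 4 residual and 3.91 prior degrees of freedom), so that comparisons sharing no array still share the estimate of the spread. Adjustment was Benjamini-Hochberg over all tested features, and intervals are 95% intervals. Precision is limited by the number of arrays. The fit was checked on simulated data in which 200 features had been changed. Promoter windows came from RefSeq.

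The 10 genes and the lists were chosen with earlier results of these data known. Named genes are all 10, the 3 of each list with the widest span of group means, genes called, the 5 most and 5 least like AGR2, and the label checks. BPIFA1 and BPIFB1 were matched by older symbols.

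Alternatives were the methods' test (one-way analysis of variance on the 4 arrays compared) with or without adjustment, limma without adjustment or limited to those 4 arrays, a fold change above 1.5 or none, a filter on the dimmest 30% of features, quantile normalization repeated, arrays shifted to one median, a robust prior with an intensity trend, leaving out each array and, chosen after seeing the data, testing all features of the table.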

Additional observations from a re-analysis of the deposited data

How the results depend on the processing

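The count of the 10 genes called with IL-13 in knockdown cells, 1, became 0 when all features of the table were tested, in limma on the 4 arrays compared, and in the methods' test with adjustment. AGR2 was the gene lost, at an unchanged difference. These settings differ from the main one in the degrees of freedom or in the features that enter the fit, and the reason for the loss was not tested. Leaving out 1 array in turn gave a count of 0 to 1, with AGR2 at -1.40 to -1.28. In shSCR cells, where the values selected AGR2 and the count of 1 is no test, it also became 0 in those 3 settings and was 0 to 0 without 1 array, with AGR2 at -1.36 to -1.12. No member was called for the knockdown, the combination or the interaction under the main setting. Of 786 values of the other 9 genes under the alternatives, 736 moved by less than the replicate SD and 50 by more, all 50 on leaving out an array, and the largest difference reached was 0.48 in size. No paired analysis was possible because the array columns carry no replicate numbers of the sample labels. With 2 arrays per group, small differences could not be resolved.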
